A study of Mus musculus with 6 samples.

Results

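The genes described here were 8 inhibitors of cysteine proteases: the stefin A genes Stfa1, Stfa2, Stfa2l1, Stfa3 and BC100530, the stefin B gene Cstb, and the cystatins Cst3 and Cst7. They were taken by name out of 45777 genes in the count table, and the choice was made with earlier results of these data known. The table listed 7 of them under these symbols, and BC100530 was found through its RefSeq transcript as Cstdc5, the name used below. The samples were 6 RNA-seq libraries of bone marrow neutrophils from wild type C57BL/6 mice: 3 from cells given prostaglandin E2 (PGE2, a lipid mediator that signals through cAMP-coupled receptors among others) at 10 µM, and 3 from cells given vehicle, which the series' design names as DMSO. Both treatments lasted 24 h. Purification used a Percoll gradient, so other marrow cells of like density could remain, and polyadenylated RNA was sequenced. The design calls the libraries biological replicates without saying which animals they came from, so p-values measure the spread between these libraries.

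Stefins are small cytosolic proteins without a signal peptide that plug the active site of papain-like cysteine cathepsins. Mice carry a cluster of stefin A genes where humans have CSTA alone, and neutrophils are a known site of their expression. Cstb encodes cystatin B, which is present in most cell types. Cst3 encodes cystatin C, a secreted inhibitor of cathepsins and legumain. Cst7 encodes cystatin F, a leukocyte inhibitor sent to lysosomes and granules, where it acts on cathepsin C, the enzyme that activates the granule serine proteases.

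The stefin A members lie with 5 other genes on chromosome 16 (mm10), from Stfa2l1 at 36156811 to Stfa3 at 36455392. Cstb lies on chromosome 10 (78425670 to 78427622, plus strand). Cst3 (148871722 to 148875512, minus strand) and Cst7 (150570415 to 150578944, plus strand) both lie on chromosome 2. The 120 bases before the annotated start of each expressed stefin A member are shown here because they carry a shared element, together with those of 2 neighbours, Cstdc4 and Csta2, against which the members' values are set below. The sequences are RefSeq's on GRCm38.p6, written 5′ to 3′, and capitals mark TTTAAAACC.
Stfa2l1, chr16:36156691-36156810, plus strand: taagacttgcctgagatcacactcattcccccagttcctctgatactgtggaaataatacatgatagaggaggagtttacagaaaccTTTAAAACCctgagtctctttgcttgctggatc
Stfa2, chr16:36408364-36408483, minus strand: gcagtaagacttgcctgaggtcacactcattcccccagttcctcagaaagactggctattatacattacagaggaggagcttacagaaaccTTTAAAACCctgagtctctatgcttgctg
Stfa3, chr16:36455393-36455512, minus strand: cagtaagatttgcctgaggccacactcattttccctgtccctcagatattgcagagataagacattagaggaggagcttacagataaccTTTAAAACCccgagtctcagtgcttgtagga
Stfa1, chr16:36277028-36277147, plus strand: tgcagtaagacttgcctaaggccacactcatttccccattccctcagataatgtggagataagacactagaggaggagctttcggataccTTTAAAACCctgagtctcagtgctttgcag
Cstdc5, chr16:36367571-36367690, minus strand: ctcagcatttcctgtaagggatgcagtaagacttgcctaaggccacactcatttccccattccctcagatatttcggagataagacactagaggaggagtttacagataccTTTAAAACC
Cstdc4, chr16:36184092-36184211, plus strand: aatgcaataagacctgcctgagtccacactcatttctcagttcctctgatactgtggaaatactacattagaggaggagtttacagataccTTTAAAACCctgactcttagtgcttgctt
Csta2, chr16:36221442-36221561, plus strand: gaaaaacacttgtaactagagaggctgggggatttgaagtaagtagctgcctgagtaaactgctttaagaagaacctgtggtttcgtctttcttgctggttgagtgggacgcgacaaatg

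The element TTTAAAACC, searched on both strands in the 250 bases before the annotated starts, was found before 8 of the 12 annotated starts of the 11 stefin and cystatin genes with a promoter sequence. These were the starts of all 5 stefin A members, Cstdc4 and Csta3 and 1 of the 2 starts of Cstdc3. Over the genome it was before 113 of 32851 annotated starts, or 0.344%. The promoters of Csta2, Cst3 and Cst7 did not hold these letters, and Cstb had no promoter sequence in the table used. The element was picked after the sequences had been seen, and its match is a description only. Among the promoters of the 5 members, Cstdc4 and Csta3, identity over the 250 bases, by global alignment, was 66.4% to 90.8% (median 77.2%, 21 pairs). The Csta2 promoter was 55.6% to 58.8% identical to these 7 (median 57.6%), against 50.8% to 59.2% for the promoters of Cst3 and Cst7. The Cstdc3 start without the element was 55.6% to 58.8% identical to the 7, as low as Csta2, and the Cstdc3 start with it 72.4% to 78.8%. The cAMP response element TGACGTCA, searched on both strands, was in 1.55% of all promoters and in 0 of these 12. Its core TGACG, which TGACGTCA contains, was in 17.8% of all promoters and also in 0 of the 12.

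The coding sequences compared had 2 lengths, 312 bases for Stfa2l1, Stfa2 and Stfa3 and 294 bases for Stfa1, Cstdc5, Cstdc4, Csta2 and Csta3. Cstdc6 had neither length and Cstdc3 had no transcript sequence here, so both were left out. The first 60 coding bases from the GENCODE M21 transcripts are shown because close copies can exchange reads. Capitals mark bases that differ from Stfa2l1 in the first 3 and from Stfa1 in the rest.
Stfa2l1: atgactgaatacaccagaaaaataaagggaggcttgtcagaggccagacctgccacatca
Stfa2: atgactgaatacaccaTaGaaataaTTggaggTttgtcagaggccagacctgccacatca
Stfa3: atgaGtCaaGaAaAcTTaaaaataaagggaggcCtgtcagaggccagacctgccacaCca
Stfa1: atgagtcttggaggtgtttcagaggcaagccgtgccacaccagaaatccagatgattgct
Cstdc5: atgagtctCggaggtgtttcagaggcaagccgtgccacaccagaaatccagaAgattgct
Cstdc4: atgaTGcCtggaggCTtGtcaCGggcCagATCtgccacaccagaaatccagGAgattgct
Csta2 had the same 60 bases as Cstdc4. Over the whole coding sequence, Stfa1 and Cstdc5 were 98.0% identical, Cstdc4 and Csta2 96.9%, and Stfa2l1 and Stfa2 96.5%, while the other pairs of equal length were 79.9% to 88.4% identical.

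Reads of 101 bases can be placed on these copies to unequal degrees. Every 101-base window of the Stfa2l1, Stfa2, Stfa3, Cstb, Cst3 and Cst7 transcripts was unique to its gene among the GENCODE M21 transcripts. For Stfa1, 5.42% of windows were identical in Cstdc5. For Cstdc5, 21.8% of windows were identical in Stfa1, Cstdc6 or Gm15845, a gene annotated on the opposite strand. Cstdc4 and Csta2 shared 34 windows, 10.8% and 6.31% of their own. Matches with up to 2 mismatches were sought only among the transcripts of the members and their cluster neighbours, on the same strand and without Cstdc3. The share of windows matching another of these genes was 34.8% for Stfa2l1, 29.9% for Stfa2, 42.4% for Stfa1, 44.9% for Cstdc5 and 0 for Stfa3. Among the neighbours it was 53.5% for Cstdc4, 50.5% for Cstdc6, 31.2% for Csta2 and 0 for Csta3. How reads with several matches were divided, and whether strand was used, are not stated in the labels or headers. Values of single stefin A genes are uncertain to that extent, those of Cstdc4, Csta2 and Cstdc6 included. For Stfa3 and Csta3 no match was found, but near matches to genes outside this set were not searched.

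Libraries held 42091346 to 56238941 counts over 18242 to 19511 genes, and replicates correlated at 0.961 to 0.981 (log2 CPM, across genes). Every member had counts in all libraries, between 192 for Stfa3 and 16470 for Cst3 in a single library, and all 8 passed the filter on low counts. Neutrophil markers led by S100a9 and S100a8 summed to 72640 to 88280 CPM in PGE2 libraries and 76570 to 85310 CPM in vehicle libraries, with 6 of 10 lower after PGE2. Monocyte and macrophage markers summed to 668 to 1018 CPM with PGE2 and 1035 to 1353 CPM with vehicle (2 of 12 lower). Eosinophil, basophil and mast cell markers summed to 108 to 180 CPM with PGE2 and 199 to 312 CPM with vehicle (5 of 10 lower). B and plasma cell markers summed to 591 to 839 CPM with PGE2 and 399 to 526 CPM with vehicle (3 of 7 higher, 6 with the replicate number as a block in the fit), and erythroid markers to 15640 to 51440 CPM with PGE2 and 4420 to 20090 CPM with vehicle (1 of 9 higher, 9 with the block). Dendritic cell markers summed to 84.6 to 112 CPM with PGE2 and 93.0 to 109 CPM with vehicle (2 of 8 tested lower, and 1 also higher with the block), and T and NK cell markers to 66.4 to 178 CPM with PGE2 and 61.7 to 134 CPM with vehicle (0 of 9 called, 2 higher with the block). Epithelial markers, of interest because epithelia also express stefin A, summed to 5.66 to 11.6 CPM with PGE2 and 6.63 to 14.6 CPM with vehicle, and 3 of the 6 were at 0. The part of these cells in the results below was not tested. Over all genes tested, 24.4% were called, and 35.5% with the block. In bulk RNA, fewer cells of a type and less RNA per cell cannot be told apart.

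In levels per transcript length, 2 members stood far above the rest. Stfa2l1 averaged 462 ± 134 TPM (a level per transcript length) in PGE2 libraries and 733 ± 67.5 TPM in vehicle libraries (SD, n = 3 each). Cst3 averaged 527 ± 64.5 TPM with PGE2 and 576 ± 47.1 TPM with vehicle. The remaining order was the same in both groups: Cstb, Stfa1, Cstdc5, Stfa2, Stfa3 and Cst7, with vehicle levels of 164, 97.7, 56.8, 31.5, 28.4 and 15 TPM. Neighbours in that order did not overlap, apart from Stfa2 and Stfa3 in both groups and Cst3 and Stfa2l1 in PGE2 libraries, where Cst3 was the higher on average. In vehicle libraries Stfa2l1 was above Cst3 in every library. Cstdc4, outside the member list, averaged 746 ± 151 TPM after PGE2 and 609 ± 101 TPM after vehicle, above Stfa2l1 in every PGE2 library and below it in every vehicle library.

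**Figure D1:**
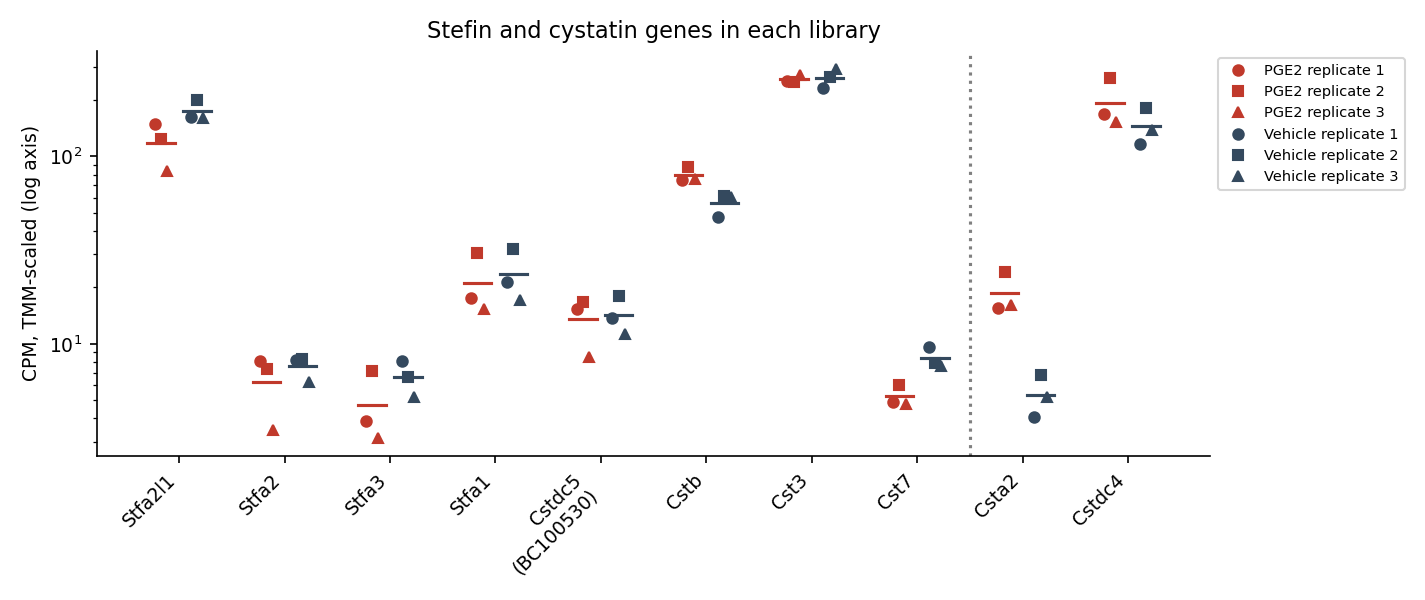
Level of each gene in every library, as TMM-scaled counts (CPM) on a log axis; symbols are the replicates, bars the group means, PGE2 in red left of vehicle in blue, and the 2 genes right of the dotted line lie outside the member list. Cstb is higher and Cst7 lower in all 3 PGE2 libraries, with no overlap, while Cst3 overlaps.

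Cstb rose and Cst7 fell with PGE2, and the other 6 members did not pass the test. With edgeR's quasi-likelihood test and Benjamini-Hochberg adjustment over all 15947 genes tested, 1 member was higher and 1 lower at an adjusted p under 0.05, which is 25.0% of the members. Over all genes, 24.4% were called, 10.1% higher and 14.3% lower, so the members were called about as often as any gene. Their median log2 fold change was -0.21, against 0.04 over all genes. The groups did not overlap in 3 members (Cstb, Cst7 and Stfa2l1), against 42.3% of all genes (20.5% without overlap and higher, 21.8% without overlap and lower).

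Among the stefins of the member list, Cstb was the gene that passed. It had 74.8, 87.4 and 75.5 CPM (counts scaled to library size with TMM factors) in the 3 PGE2 libraries, against 47.3, 61.8 and 60.5 CPM in the 3 vehicle libraries. The lowest PGE2 library exceeded the highest vehicle library. The fold was 1.40 (log2 fold change 0.49 ± 0.12, SE; 95% interval 0.20 to 0.77; edgeR adjusted p = 0.0231). The log2 ratio within same-numbered libraries was 0.66, 0.50 and 0.32, higher in 3 of 3. Without PGE2 replicate 2 the log2 fold change was 0.41 with an edgeR adjusted p of 0.0747, and over all alternatives the adjusted p was 0.00256 to 0.0747.

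Stfa2l1, the most abundant stefin A member, had 148, 123 and 83.3 CPM with PGE2, against 162, 199 and 160 CPM with vehicle. The 3 PGE2 libraries were below the 3 vehicle libraries, by a narrow gap for PGE2 replicate 1. The log2 fold change was -0.56 ± 0.20 (SE; 95% interval -1.01 to -0.10), and the call was missed at an edgeR adjusted p of 0.0758. The call depended on the fit: edgeR with the replicate number as a block gave -0.59 with an adjusted p of 0.0125, where 35.5% of all genes were called. DESeq2's Wald test gave -0.56 with an adjusted p of 0.0196, and limma on log2(TPM + 1) gave -0.70 with 0.0241. Without PGE2 replicate 1 edgeR gave -0.74 with an adjusted p of 0.0229, and over all alternatives the adjusted p was 0.0125 to 0.217.

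The other stefin A members had lower levels and wide intervals. Stfa1 had 17.6, 30.4 and 15.4 CPM with PGE2 and 21.4, 32.0 and 17.0 CPM with vehicle (log2 fold change -0.15 ± 0.30, edgeR adjusted p = 0.764). Cstdc5 had 15.3, 16.7 and 8.53 CPM with PGE2 and 13.7, 18.0 and 11.3 CPM with vehicle (-0.09 ± 0.27, edgeR adjusted p = 0.856). In both, replicate 2 was the highest and replicate 3 the lowest library of each treatment, and the groups overlapped. Stfa2 had 8.07, 7.31 and 3.48 CPM with PGE2 and 8.18, 8.35 and 6.28 CPM with vehicle (-0.28 ± 0.30, edgeR adjusted p = 0.554). Stfa3 had 3.90, 7.13 and 3.16 CPM with PGE2 and 8.08, 6.66 and 5.18 CPM with vehicle (-0.49 ± 0.32, edgeR adjusted p = 0.308). PGE2 replicate 2 alone overlapped the vehicle libraries of Stfa3, and without it the log2 fold change was -0.91 with an edgeR adjusted p of 0.0425. The 95% intervals of the log2 fold changes were -0.84 to 0.54 for Stfa1, -0.70 to 0.53 for Cstdc5, -0.97 to 0.41 for Stfa2 and -1.21 to 0.24 for Stfa3, each holding differences in both directions.

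Among the neighbouring stefin A genes, Csta2 rose. The list made for this group held 9 genes outside the members, 5 of them in the cluster. Csta1, Cstdc1, Cstdc2 and Cstdc7 were listed by name but are not among the cluster's genes. Of the 9, 4 passed the filter on low counts, all of them in the cluster. Of these, 1 was called higher and none lower, 25.0% called against 24.4% of all genes. With the replicate block 2 were higher and 0 lower, where 35.5% of all genes were called. The median log2 fold change of the 4 was 0.57. Csta2, a stefin A family gene, had 15.5, 24.3 and 16 CPM after PGE2, against 4.06, 6.80 and 5.24 CPM after vehicle. Every PGE2 library was above every vehicle library, and the fold was 3.47 (log2 fold change 1.80 ± 0.24, edgeR adjusted p = 0.00159, past the threshold in 14 of 14 alternatives). Cstdc4 had 167, 260 and 153 CPM with PGE2 and 117, 181 and 138 CPM with vehicle (0.42 ± 0.23, edgeR adjusted p = 0.227). Vehicle replicate 2 lay above PGE2 replicates 1 and 3, and with the replicate block it was 0.40 with an edgeR adjusted p of 0.0113. Csta3 (log2 fold change 0.10 ± 0.31, edgeR adjusted p = 0.848) and Cstdc6 (0.73 ± 0.43, edgeR adjusted p = 0.268) did not pass. Cstdc3 had no count in any library, where 3 counts correspond to 0.0533 to 0.0713 CPM.

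**Figure D2:**
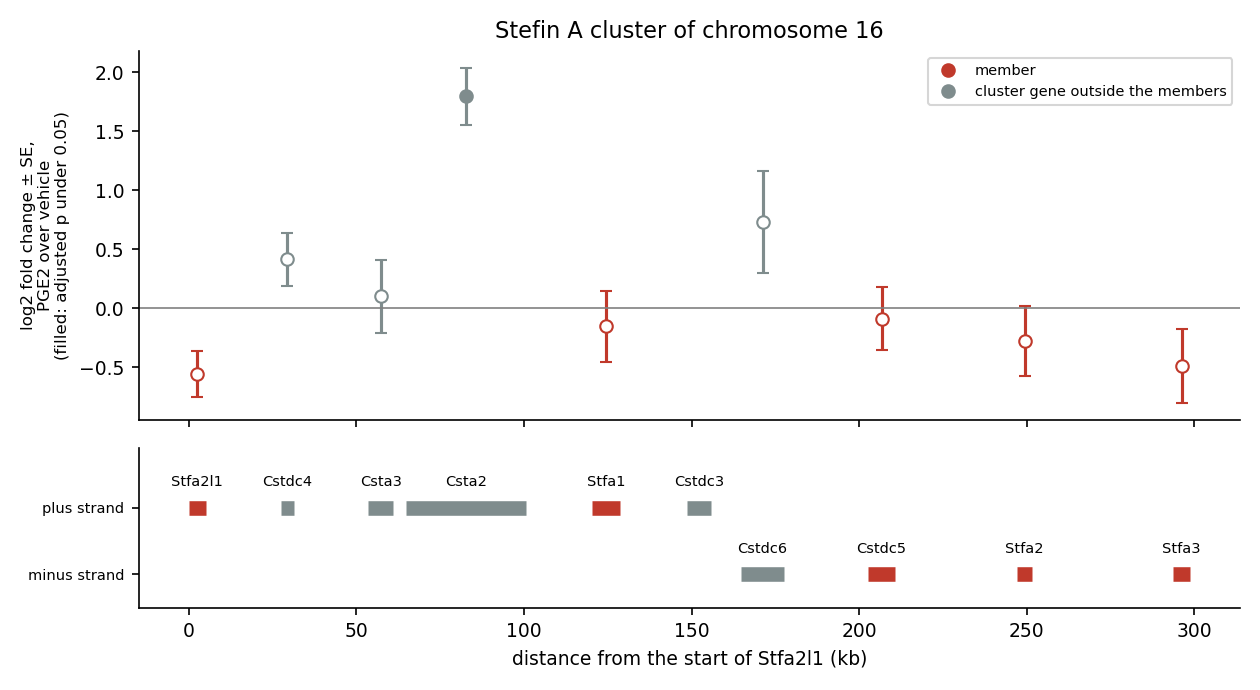
Log2 fold change of PGE2 over vehicle (± SE, upper panel) of the stefin A genes in their order along chromosome 16, in kilobases from the start of Stfa2l1, with the gene spans by strand below; filled points passed the edgeR test. The 5 members lie at -0.56 to -0.09, and Csta2 at 1.80 lies between Csta3 and Stfa1.

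A sum over genes does not depend on how reads were divided among the genes added. The 5 stefin A members summed to 193, 185 and 114 CPM with PGE2 and 214, 264 and 200 CPM with vehicle, 164 ± 43.5 against 226 ± 34.1 CPM (log2 ratio of means -0.46). The PGE2 sums all lay below the vehicle sums, at the closest 193 against 200 CPM. Leaving out each library in turn gave log2 ratios of -0.60 to -0.26. Stfa2l1 made up 72.2 ± 5.07% of the counts of the 5 members with PGE2 and 77.1 ± 2.53% with vehicle. The sum therefore largely repeats the values of Stfa2l1. Reads that Cstdc5 shares with Cstdc6 or Gm15845, which are outside the 5 members, can still affect it. With all 10 genes of the cluster, the sums were 379 ± 94.3 CPM with PGE2 and 379 ± 66.2 CPM with vehicle (log2 ratio 0.00), and on the deposited TPM scale the 5 members gave -0.58.

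The make-up of the cluster's counts differed more than its total. Stfa2l1 made up 39.0%, 26.0% and 29.2% of the cluster's counts in PGE2 libraries, against 48.2%, 43.8% and 46.3% in vehicle libraries. Cstdc4 made up 44.2%, 55.0% and 53.5% with PGE2, against 34.7%, 39.6% and 40.0% with vehicle. Neither gene's shares overlapped between the groups. The larger of the pair was Cstdc4 in all 3 PGE2 libraries and Stfa2l1 in all 3 vehicle libraries. Shares of 1 total are tied, so a fall in the share of 1 gene raises those of others. Neither gene passed the edgeR test on its own. The ratio of Cstdc4 to Stfa2l1 counts was 1.13, 2.11 and 1.83 with PGE2 and 0.720, 0.906 and 0.864 with vehicle. Csta2 took 4.95 ± 0.78% with PGE2 and 1.41 ± 0.17% with vehicle. The shares of Stfa1, Cstdc5, Stfa2 and Stfa3 overlapped between the groups. The shares are given as a description, without a test.

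**Figure D3:**
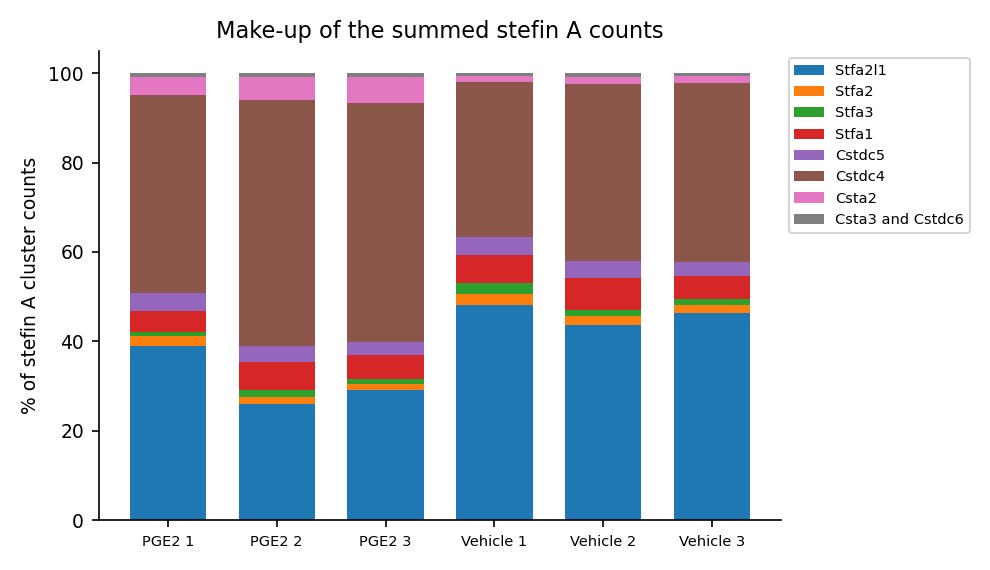
Share of the summed stefin A cluster counts (percent) taken by each gene in each library, PGE2 libraries left of vehicle libraries. Cstdc4 is the largest segment in the 3 PGE2 libraries (44.2% to 55.0%) and Stfa2l1 in the 3 vehicle libraries (43.8% to 48.2%).

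Among the cystatins that enter the secretory pathway, Cst7 fell and Cst3 did not pass. Cst7 had 4.92, 6.04 and 4.79 CPM with PGE2, against 9.60, 7.95 and 7.58 CPM with vehicle. All 3 PGE2 libraries were below all 3 vehicle libraries, and the level was 0.627 of that with vehicle (log2 fold change -0.67 ± 0.17, SE; 95% interval -1.05 to -0.29; edgeR adjusted p = 0.0203). Same-numbered libraries gave log2 ratios of -0.96, -0.40 and -0.66. The edgeR call was lost without PGE2 replicate 1 (-0.62, adjusted p = 0.0507), PGE2 replicate 3 (-0.60, 0.0674), vehicle replicate 1 (-0.56, 0.0718) or vehicle replicate 2 (-0.71, 0.0523), and the adjusted p over all alternatives was 0.00374 to 0.0718. Csf1r, a macrophage receptor gene, also fell (191 against 285 CPM, log2 fold change -0.57, edgeR adjusted p = 0.0218), and the part of macrophage-lineage cells in the Cst7 value was not tested.

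Cst3 had 252, 250 and 271 CPM with PGE2, against 232, 264 and 292 CPM with vehicle. The PGE2 libraries lay inside the range of the vehicle libraries. The log2 fold change was -0.03 ± 0.10 (SE; edgeR adjusted p = 0.876), with a 95% interval of -0.26 to 0.20. Its sign turned with library totals in place of TMM scaling (0.07, edgeR adjusted p = 0.689), which moved the median of all genes to 0.13, and without vehicle replicate 3 (0.06).

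The balance of the 3 non-stefin-A inhibitors can be read within a library, where scaling cancels. The ratio of Cstb to Cst3 counts was 0.297, 0.350 and 0.278 with PGE2, against 0.204, 0.234 and 0.207 with vehicle. The ratio of Cstb to Cst7 counts was 15.2, 14.5 and 15.8 with PGE2, against 4.93, 7.78 and 7.98 with vehicle. Both ratios were higher in every PGE2 library than in any vehicle library. For Cstb to Cst7 this follows from the lack of overlap of each gene given above, and it is no further evidence. These are ratios of counts, not of molecules, since the transcripts differ in length.

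**Figure D4:**
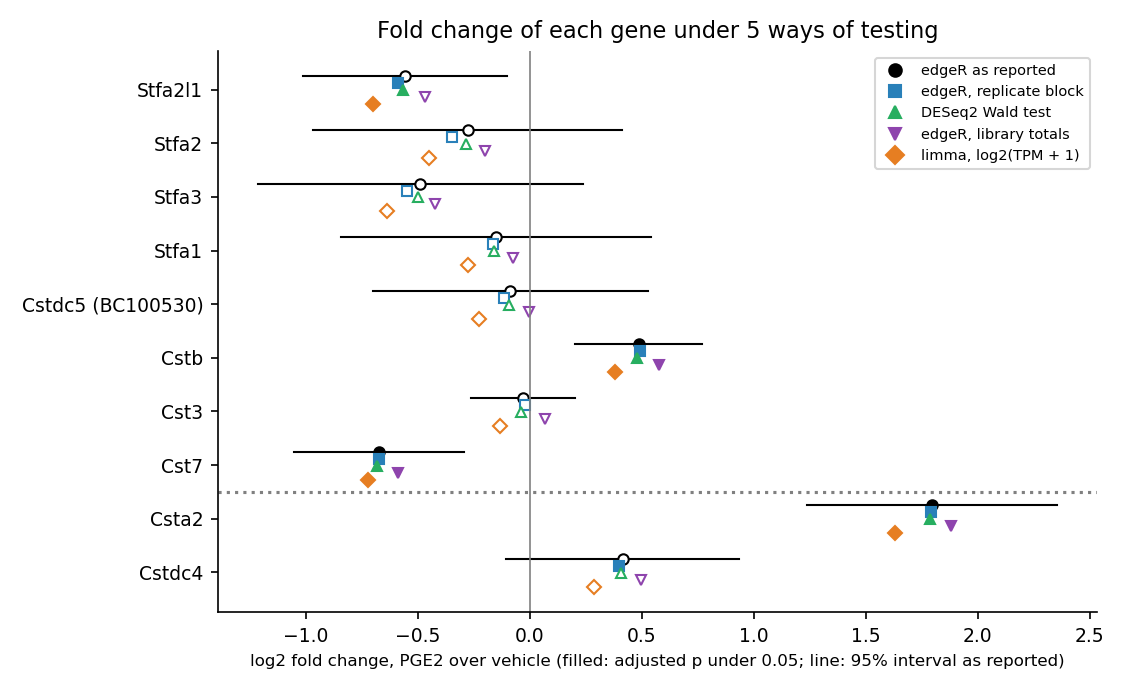
Log2 fold change, PGE2 over vehicle, of each member and of Csta2 and Cstdc4 (below the dotted line) under 5 ways of testing; filled symbols passed an adjusted p of 0.05 and lines are 95% intervals of the edgeR test as reported. Cstb, Cst7 and Csta2 are filled in all 5, Stfa2l1 in 3.

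The proteases that these inhibitors bind showed 2 genes higher, 1 lower and 9 not passed among 12 listed, 25.0% called against 24.4% of all genes. With the replicate block, where 35.5% of all genes were called, 4 were higher and 1 lower. Without vehicle replicate 3 there was 1 higher. The median log2 fold change was 0.19, and 0.037 to 0.244 when each library was left out in turn, lowest without PGE2 replicate 2. Ctsl, encoding the lysosomal endopeptidase cathepsin L, had 46.1, 57.0 and 52.8 CPM with PGE2, against 22.6, 29.1 and 29.1 CPM with vehicle (log2 fold change 0.95 ± 0.13, edgeR adjusted p = 0.00175). Lgmn, encoding legumain, an asparaginyl endopeptidase, averaged 41.0 ± 1.85 CPM with PGE2 and 30.8 ± 2.03 CPM with vehicle (0.41 ± 0.09, edgeR adjusted p = 0.0132). The gene that fell was Tinagl1, a cathepsin B-like secreted protein that lacks protease activity, at 38.7 ± 7.94 CPM with PGE2 and 120 ± 11.1 CPM with vehicle (-1.63 ± 0.15, edgeR adjusted p = 4.67e-04).

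The other cysteine cathepsin genes listed did not pass. Ctsb, encoding cathepsin B, averaged 310 CPM with PGE2 and 294 CPM with vehicle (log2 fold change 0.08 ± 0.11, edgeR adjusted p = 0.673). Ctss, encoding cathepsin S, averaged 179 CPM with PGE2 and 148 CPM with vehicle (0.28 ± 0.15, edgeR adjusted p = 0.226, and 0.0118 with the replicate block). Ctsz, encoding cathepsin Z, averaged 161 CPM with PGE2 and 154 CPM with vehicle (0.06 ± 0.08, edgeR adjusted p = 0.658), and Ctsh, encoding cathepsin H, 110 CPM with PGE2 and 114 CPM with vehicle (-0.06 ± 0.14, edgeR adjusted p = 0.813). Ctsc, encoding cathepsin C, the target of cystatin F, had 98.5, 80.4 and 63.6 CPM with PGE2 and 84.4, 73.4 and 50.6 CPM with vehicle (0.22 ± 0.21, edgeR adjusted p = 0.503, and 0.0386 with the replicate block). Each same-numbered PGE2 library of Ctsc was the higher, while the groups overlapped.

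**Figure D5:**
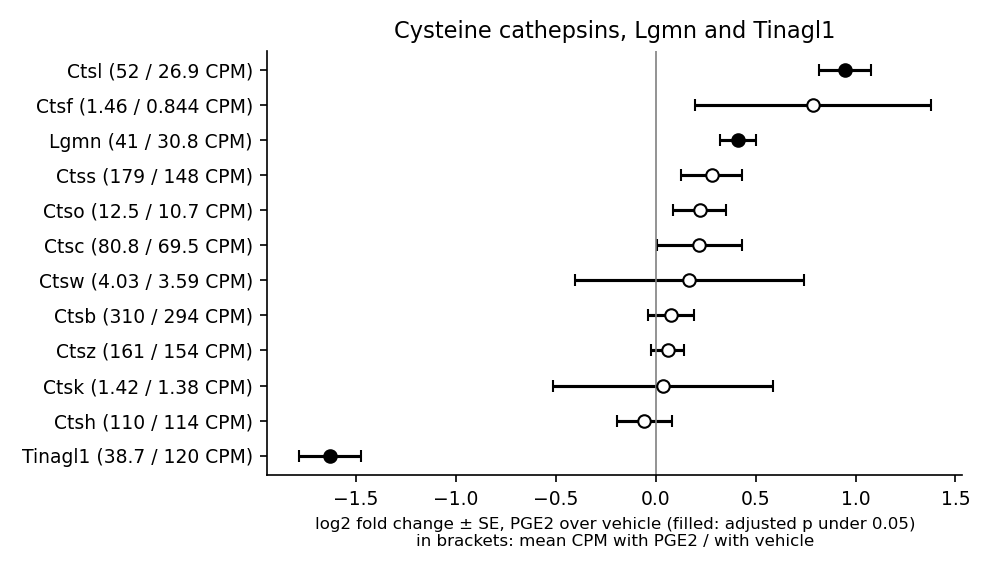
Log2 fold change of PGE2 over vehicle (± SE) of the 12 listed cathepsin-family genes and legumain, with mean CPM of PGE2 and then vehicle in brackets; filled points passed the edgeR test. Ctsl (0.95) and Lgmn (0.41) are higher, Tinagl1 (-1.63) is lower.

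Of the granule serine proteases that cathepsin C activates, 7 of 9 listed were tested, none was called higher and 1 was called lower. That was 14.3% called, against 24.4% of all genes. With the replicate block 1 was higher and 3 were lower, where 35.5% of all genes were called. The median log2 fold change was -0.32, and -0.033 without vehicle replicate 1. The gene that fell was Elane, encoding neutrophil elastase, with 70.9, 53.5 and 57.2 CPM after PGE2 against 129, 88.4 and 105 CPM after vehicle (-0.83 ± 0.16, edgeR adjusted p = 0.00718). Prss57, a neutrophil serine protease, averaged 4.67 CPM with PGE2 and 6.49 CPM with vehicle (-0.47 ± 0.18, edgeR adjusted p = 0.0945, and 0.0300 with the replicate block). Prtn3, encoding proteinase 3, averaged 38.4 CPM with PGE2 and 47.9 CPM with vehicle (-0.32 ± 0.15, edgeR adjusted p = 0.151). Gzma, encoding granzyme A of cytotoxic lymphocytes, averaged 5.10 ± 3.45 CPM with PGE2 and 2.44 ± 1.43 CPM with vehicle (1.07 ± 0.71, edgeR adjusted p = 0.319, and 0.00651 with the replicate block).

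The rest of the cystatin superfamily had almost no counts. Of 14 further genes listed, including Cst6, Fetub, Ahsg and Hrg, 12 had no count in any library. Kng1 had 4 counts and Cstad 32 counts over all 6 libraries, and none of the 14 passed the filter on low counts.

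The genes most like each member, by the root mean square difference of log2 CPM centred on its mean over the 6 libraries, differed between members. For Cstb they were Jtb (0.026), Tnfrsf1b (0.032) and Polr3k (0.046). For Cst7 they were Frmd4b (0.046), Zfp141 (0.050) and Sag (0.053), and for Cst3 Fam32a (0.030), Fchsd1 (0.034) and Arl1 (0.037). Stfa2l1 was closest to Naif1 (0.056), Eif4ebp1 (0.089) and Zfp28 (0.104). The remaining stefin A members had less close neighbours: Stfa1 lay at 0.126 from Nfatc2, Cstdc5 at 0.113 from Paqr3, Stfa2 at 0.108 from Tarm1 and Stfa3 at 0.213 from Bmp2k. Only genes outside the members were searched.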

How the data were processed

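Gene counts of the 6 libraries came from the authors' table of the whole series: estimated counts per gene, all whole. The table's name says normalized, yet totals varied by library. In 45 of 47 single-exon genes holding 200 counts or more, deposited coverage multiplied by length came to 101 bases per count, so the values were used as unnormalised reads. TPM came from the authors' per-library tables, per the file headers. The build was mm10 and the tools were StringTie 2.1.3b, RSEM, STAR, Bowtie2 and DESeq2, per the submitters' processing notes. Which of them made which value is not known here. The labels name the TruSeq mRNA kit both as standard and as stranded. A further 18 columns of 6 other libraries were not used.

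Rounded counts with at least 10 in at least 3 libraries (15947 genes) were tested with edgeR 4.0.16 (R 4.3.3, quasi-likelihood, TMM, two-sided, Benjamini-Hochberg, threshold 0.05) after a check on simulated data. The biological coefficient of variation was 22.4%. DESeq2 1.42.0, limma 3.58.1 on log2(TPM + 1) or log2(TPM + 0.1) (TPM of at least 1 in at least 3 libraries), other scalings and filters, a replicate block and leaving out each library were alternatives, 14 in all. Same-numbered libraries deviated together (correlations 0.258, 0.174 and 0.187, each library highest with its own number), and were therefore treated as pairs in the block fit, although no label defines the numbers. The floor of 3 counts for a gene at 0 covers counting error only.

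The members and gene lists were chosen with earlier results of these data known. Named were all members, the 4 genes per list of lowest adjusted p and up to 2 more called in the other direction, the 3 genes most like each member (mean count at least 100), and the top 2 markers. Ctsb, Ctsc, Ctsh, Ctsz and the further list genes named beside a count were added after their values were seen. Tinagl1 was kept in the cysteine protease list although its product is inactive, and Tpp2 in the lysosomal list although its product is mainly cytosolic.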

Additional observations from a re-analysis of the deposited data

How the results depend on the processing

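With 3 libraries a group and a biological coefficient of variation of 22.4%, Stfa1, Stfa2, Stfa3 and Cstdc5 had 95% intervals wider than 1 on the log2 scale. Over 14 alternatives Cstb passed in 13, Cst7 in 10, Stfa2l1 in 5, Stfa3 and Cstdc4 in 1 each, and Csta2 in 14. The replicate block (numbers taken as paired) gave 2 members lower (Stfa2l1 -0.59, Cst7), 2 cluster genes outside the members higher (Cstdc4 0.40), 4 cysteine proteases, 2 other lysosomal proteases, 1 granule protease and 6 serine protease inhibitors higher, 3 granule proteases lower, and 2648 genes higher against 1618 without it, and it changed no other list count beyond 1.5 times. DESeq2's Wald test (Stfa2l1 -0.56) and limma on TPM with pseudocount 1 (-0.70) or 0.1 (-0.70) also gave 2 members lower. Limma on TPM called 966 and 953 genes higher with those pseudocounts, with 1 cysteine protease and 0 other lysosomal proteases higher in both. The share of calls that were higher was 41.5% as reported, 55.5% with library totals and 30% on TPM. Library totals turned Cst3 to 0.068, gave 2 other lysosomal proteases higher and 1 lower, and turned the medians of that list to 0.02 and of the serine protease inhibitors to 0.003. Without a filter the inhibitors' median was 0.34. The summed stefin A ratio was 0.00 with all cluster genes.

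Leaving out each library in turn gave log2 fold changes of -0.51 to 0.14 for Stfa1, -0.49 to 0.026 for Stfa2, -0.74 to -0.35 for Stfa2l1, -0.91 to -0.26 for Stfa3, -0.26 to 0.17 for Cstdc5, 0.38 to 0.56 for Cstb, -0.10 to 0.055 for Cst3 and -0.78 to -0.56 for Cst7. Signs turned without PGE2 replicate 3 (Stfa1 0.04, Stfa2 0.026, Cstdc5 0.17), vehicle replicate 2 (Stfa1 0.14, Cstdc5 0.11) or vehicle replicate 3 (Cst3 0.055). Members called were 0 to 1 higher (0 without PGE2 replicate 2) and 0 to 2 lower (0 without PGE2 replicate 3, vehicle replicate 1 or vehicle replicate 2). All genes called higher were 1005 (without vehicle replicate 2) to 1541, with 1063 without PGE2 replicate 2. The median of the granule proteases was -0.50 to -0.033. Cysteine proteases gave 1 to 2 higher, with 1 without vehicle replicate 3. Other lysosomal proteases gave 0 to 1 higher and 1 to 2 lower, serine protease inhibitors 1 to 4 lower, and neutrophil maturation genes 6 to 12 lower. The inhibitors' median was -0.16 to 0.18, with 0.15 without PGE2 replicate 1, 0.18 without vehicle replicate 2 and 0.002 without vehicle replicate 3. The cause of these changes was not tested.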

Other observations

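Genes listed as leukocyte serine protease inhibitors were called in both directions. Of 22 listed, 15 were tested, 3 rose and 2 fell (33.3% called, against 24.4% of all genes). With the replicate block 6 rose and 3 fell, where 35.5% of all genes were called. The median log2 fold change was -0.10 against 0.04 over all genes. Serpinb2, encoding plasminogen activator inhibitor 2, had 8.60, 14.3 and 7.48 CPM with PGE2, against 0.546, 1.10 and 0.445 CPM with vehicle (log2 fold change 3.88 ± 0.40, edgeR adjusted p = 5.71e-04). Serpine2, encoding protease nexin 1, averaged 13.2 ± 2.41 CPM with PGE2 and 6.85 ± 1.24 CPM with vehicle (0.94 ± 0.19, edgeR adjusted p = 0.00867). Spint2, encoding a Kunitz-type inhibitor, averaged 16.7 ± 1.29 CPM with PGE2 and 25.6 ± 1.47 CPM with vehicle (-0.61 ± 0.11, edgeR adjusted p = 0.00452). Serpinb10 had 10.2, 8.76 and 3.51 CPM with PGE2, against 36.0, 22.5 and 13.0 CPM with vehicle (-1.68 ± 0.45, edgeR adjusted p = 0.0291). The groups did not overlap in any of these 4 genes, against 42.3% of all genes without overlap. These 4 were named for their low adjusted p, so their lack of overlap is no further evidence. The number lower was 4 without PGE2 replicate 1, and it was 1 when any of PGE2 replicates 2 and 3 or vehicle replicates 1 and 2 was left out.

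Of 10 genes listed as lysosomal proteases of other classes, 1 was higher and 2 were lower, 30.0% called against 24.4% of all genes. The median log2 fold change was -0.07. With the replicate block 2 were higher and 3 lower, where 35.5% of all genes were called. None was higher without PGE2 replicate 2, vehicle replicate 2 or vehicle replicate 3, and 1 was lower without vehicle replicate 2. Ctse, encoding the aspartic protease cathepsin E, averaged 43.6 ± 7.91 CPM with PGE2 and 116 ± 6.48 CPM with vehicle (-1.41 ± 0.14, edgeR adjusted p = 4.89e-04). Tpp2, encoding tripeptidyl peptidase 2, a mainly cytosolic enzyme kept in this list, fell (-0.33 ± 0.08, edgeR adjusted p = 0.0154). Prcp, encoding a lysosomal carboxypeptidase, rose (0.40 ± 0.10, edgeR adjusted p = 0.0198). Scpep1, a carboxypeptidase gene, was at 0.31 ± 0.11 (edgeR adjusted p = 0.0843, and 0.0299 with the replicate block). Of 25 listed neutrophil maturation genes, 3 were higher and 10 lower (median -0.34), 52.0% called against 24.4% of all genes. The list also holds granule genes such as Ltf, Camp, Ngp and Lcn2 and was not sorted by stage. Those called included Il1r2, the decoy receptor of interleukin 1 (2.0 ± 0.20, edgeR adjusted p = 5.70e-04), Clec4d, a C-type lectin receptor (1.10 ± 0.15, edgeR adjusted p = 0.00169), Mmp9, a gelatinase (-1.18 ± 0.12, edgeR adjusted p = 5.71e-04), Csf3r, the receptor of G-CSF (-0.93 ± 0.11, edgeR adjusted p = 8.43e-04), Ly6g, a neutrophil surface marker (-0.87 ± 0.13, edgeR adjusted p = 0.00280), and Cd177, a surface glycoprotein (-1.53 ± 0.24, edgeR adjusted p = 0.00321). Without PGE2 replicate 2, PGE2 replicate 3 or vehicle replicate 2, 6 of the 25 were lower.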
